A study of Mus musculus with 8 samples.

Results

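Liver RNA of mice labelled KO for Fxr, the gene of the farnesoid X receptor, was compared with that of mice labelled WT, all given vehicle. The contrast rests on 4 mice, 2 per group, and covers 10921 of the 26682 loci of the deposited tables. A locus was kept where the authors' test had status OK in both tables that hold a vehicle group and where the FPKM (fragment counts scaled to locus length and library size) reached 1 in WT or KO. No deposited table sets the vehicle groups against each other, so the FPKM of each was divided by a scale that puts its table on that of the genotype table, 1.053 for KO and 1.077 for WT, and the log2 of KO over WT was taken.

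The series holds 8 mice in 4 groups of 2, WT or KO, with vehicle or with IUB288, an agonist of the glucagon receptor. All were on a C57Bl/6J background and were fasted for 2 h before death. Both a high-fat and a chow diet appear in the labels, with no diet tied to a mouse, so diet and group cannot be told apart. The design text speaks of floxed Fxr, but the recombinase, the deleted exon and the tissue of the deletion are not given in the sources used here. Nothing in the labels says which mice were littermates. Each group has 1 pooled FPKM value per locus, so no value per mouse can be shown, and depth per library is unknown. The value after ± is an error on the log2 scale implied by the authors' test statistics in the 3 tables; its median over the members was 0.41, and no p-value was made from it for the vehicle contrast.

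The farnesoid X receptor is a nuclear receptor that bile acids activate. In the liver it induces Nr0b2, whose product SHP represses bile acid synthesis, and the export pump gene Abcb11, and so limits the bile acid load of the hepatocyte. Many liver genes also differ between the sexes of the mouse, largely through the pulse pattern of growth hormone and its transducer STAT5, and others follow glucocorticoids, feeding and the circadian clock.

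Between the vehicle groups, 13 of 24 genes of male-biased liver expression were 2-fold or more higher in KO, against 1.83% of all members. Lower by 2-fold or more were 8 of 21 glucocorticoid-responsive genes, metallothioneins among them, and 7 of 21 periportal genes, against 2.16% of all members. The regions upstream of 4 genes at these extremes are shown because the first pair, Mt2 and Mt1, had the lowest vehicle ratios among genes also called lower in KO under IUB288, and the second pair, Selenbp2 and Hsd3b5, were the highest male-biased genes. They are the 250 bases before the annotated start from RefSeq, GRCm38.p6, written 5′ to 3′ on the gene's strand, at chr8:94172368-94172617 (plus strand) for Mt2, chr8:94178839-94179088 (plus) for Mt1, chr3:94693323-94693572 (plus) for Selenbp2 and chr3:98645535-98645784 (minus) for Hsd3b5. Capitals mark matches on either strand to the core of the metal response element (TGCACNC or TGCGCNC), and in Mt1 also a match to the glucocorticoid response element.
Mt2: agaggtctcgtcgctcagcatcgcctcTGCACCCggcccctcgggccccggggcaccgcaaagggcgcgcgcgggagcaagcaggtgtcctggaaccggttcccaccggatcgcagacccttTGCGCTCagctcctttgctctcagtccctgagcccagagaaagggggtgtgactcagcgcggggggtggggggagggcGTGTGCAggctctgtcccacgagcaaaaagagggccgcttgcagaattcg
Mt1: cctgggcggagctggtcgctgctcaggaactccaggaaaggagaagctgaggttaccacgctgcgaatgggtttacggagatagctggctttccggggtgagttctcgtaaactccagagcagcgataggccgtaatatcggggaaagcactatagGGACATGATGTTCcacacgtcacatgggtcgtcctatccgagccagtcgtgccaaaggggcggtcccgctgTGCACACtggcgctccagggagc
Selenbp2: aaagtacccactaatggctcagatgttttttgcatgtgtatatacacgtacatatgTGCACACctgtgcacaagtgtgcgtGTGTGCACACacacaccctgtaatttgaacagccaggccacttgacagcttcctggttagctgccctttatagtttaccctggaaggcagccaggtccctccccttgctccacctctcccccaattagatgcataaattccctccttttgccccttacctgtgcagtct
Hsd3b5: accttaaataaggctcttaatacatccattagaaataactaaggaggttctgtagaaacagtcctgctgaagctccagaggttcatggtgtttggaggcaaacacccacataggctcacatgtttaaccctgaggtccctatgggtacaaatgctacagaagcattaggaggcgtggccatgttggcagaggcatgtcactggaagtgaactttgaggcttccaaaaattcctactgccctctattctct
The Mt2 window held 3 metal element matches and the Mt1 window 1, with the glucocorticoid element match GGACATGATGTTC starting 94 bases before the start of Mt1. Selenbp2 also held 3 metal element matches, of which 2 overlap, in a repeat of alternating bases. Among 32841 windows of this length 21.4% held at least 1 metal element match and 1.26% held 3 or more, while 0.387% held the glucocorticoid element. The STAT5 motif TTCNNNGAA, present in 7.02% of windows, was in neither the Selenbp2 nor the Hsd3b5 window, and 2 of the 17 male-biased genes with a window had it. A gene counted where any of its windows matched, so such counts are not on the same footing as shares of windows. These are matches of letters, not sites shown to be bound. Each window ends at the annotated start, so matches past that start, or before another start of the gene, are not counted.

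Over all members the median log2 of KO over WT was 0.04, and 85.9% of members lay within 0.5 of 0. At 2-fold or more, 200 members were higher in KO (1.83%) and 236 were lower (2.16%). Of these 436 loci 120 had no gene symbol, and 156 had 1 symbol and reached 5 FPKM in a group, 77 higher and 79 lower. At 4-fold or more 45 were higher and 47 lower. Loci listed at 0 in a vehicle group numbered 8, and a listed 0 can be a failed estimate. At the minimum of 1 FPKM, C2cd4d (0.756 in WT, 1.00 in KO) lay just inside, and Crybb3 (0.371 in WT, 1.000 in KO) just outside.

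**Figure D1:**
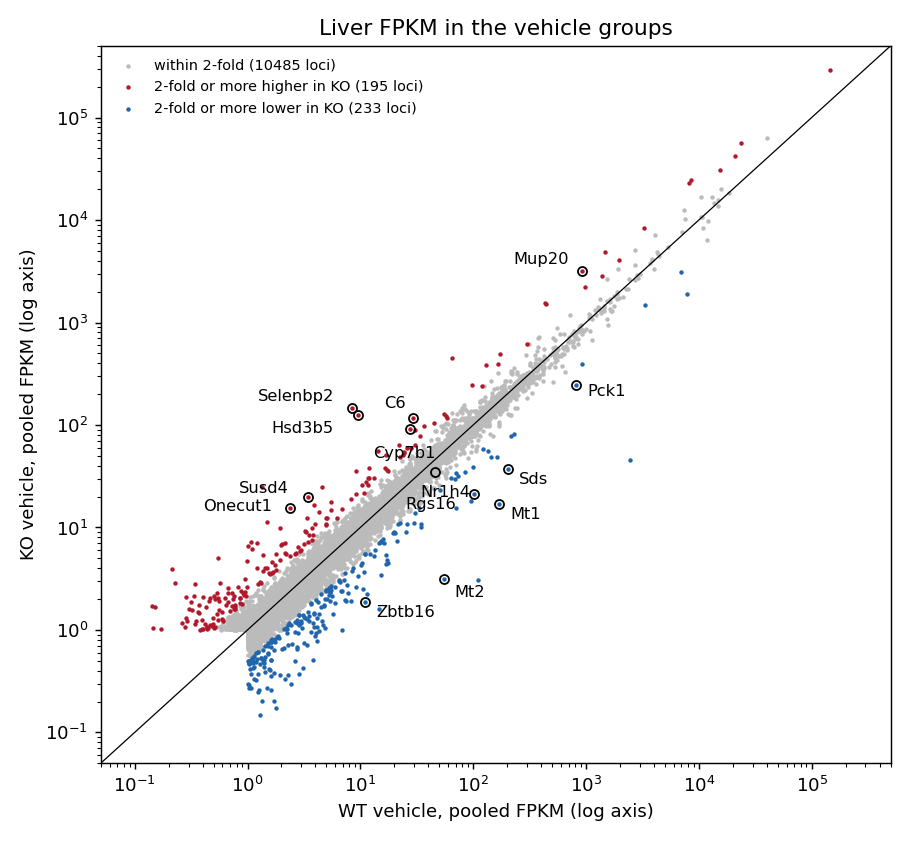
Pooled FPKM of each locus above 0 in both vehicle groups, WT on the horizontal and KO on the vertical log axis, 1 point a locus, with the line of equality. Most points lie along the line; Selenbp2, Hsd3b5, Susd4 and Mup20 lie above it, and Mt2, Mt1, Zbtb16, Rgs16, Sds and Pck1 below it.

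The targeted gene was read first. Nr1h4, the symbol of Fxr, had 45.8 FPKM in WT and 35 in KO under vehicle, a log2 of -0.39 ± 0.36. In the authors' deposited table of the IUB288 groups it had 37.4 and 25.7 FPKM, a log2 of -0.54 with q = 1.00. Nr1h4 was thus lower in KO by little more than its error in each treatment, and a level summed over all exons cannot tell whether 1 exon was lost. The names WT and KO below mean the groups so labelled.

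Of 28 measured genes that the receptor is known to induce, none was 2-fold higher in KO and 2 were 2-fold lower, with a median log2 of -0.03. The 2 were Slc51b, a subunit of the basolateral bile acid exporter, at 1.95 FPKM in WT and 0.366 in KO (-2.41 ± 1.33), and Apoc2, the activator of lipoprotein lipase, at 917 and 391 FPKM (-1.23 ± 0.38). Nr0b2 had 41.1 FPKM in WT and 27.5 in KO (-0.58 ± 0.37). Abcb11 had 102 and 80.2 FPKM (-0.35 ± 0.40). Both classical targets were lower in KO by less than 2-fold. The perfect IR1 motif of the receptor, an inverted repeat spaced by 1 base, was in none of the windows of the 24 induced genes that matched RefSeq; only 0.00609% of all windows hold this exact form.

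Among 17 genes of bile acid synthesis and conjugation 1 was 2-fold higher in KO and 1 lower (median log2 0.13). Cyp7b1, the oxysterol 7-alpha-hydroxylase of the alternative pathway and a male-biased gene, had 27.4 FPKM in WT and 91.8 in KO (1.74 ± 0.38). Under IUB288 its FPKM in the authors' deposited table was 97.8 in WT and 103 in KO (log2 0.07, q = 1.00), so the KO vehicle value was near those of both IUB288 groups. The KO effect on Cyp7b1 under vehicle minus that under IUB288 was 1.67 ± 0.61 (z test on implied errors, adjusted p of 1.00, Benjamini-Hochberg over 13521 loci). Cyp39a1, an oxysterol hydroxylase, was lower, at 12.3 FPKM in WT and 5.46 in KO (-1.18 ± 0.40). The genes that SHP restrains, Cyp7a1 (the enzyme of the rate-limiting step from cholesterol, 8.33 and 12.2 FPKM, 0.55 ± 0.41) and Cyp8b1 (the sterol 12-alpha-hydroxylase, 178 and 231 FPKM, 0.38 ± 0.41), were higher in KO by about 1 error each.

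Of 15 transporters of bile acids and bile lipids 1 locus was 2-fold higher and 2 were lower. The higher one joins the organic anion transporters Slco1a1 and Slco1a6, at 36.6 FPKM in WT and 98.0 in KO (1.42 ± 0.37). In the authors' deposited table the same locus had 4.51 FPKM in WT and 52.3 in KO under IUB288, a log2 of 3.54 with q = 0.0118. Slco1a4, a neighbouring transporter of the same family, was lower, at 26.0 FPKM in WT and 10.7 in KO (-1.28 ± 0.37). Reads may be divided between such close paralogs. Of the 18 measured nuclear receptors, FGF receptors and their ligands none passed 2-fold. Fgf21, a fasting hormone of the liver, had 4.79 and 3.46 FPKM (-0.47 ± 0.56), and Gcgr, the glucagon receptor that IUB288 acts on, had 121 and 111 FPKM (-0.12 ± 0.36).

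Of 24 measured male-biased genes 13 were 2-fold or more higher in KO and none lower, against 1.83% and 2.16% of all members, with a median log2 of 1.14, and 23 of the 24 lay above 0. Selenbp2, a selenium-binding protein of the male mouse liver, had 8.42 FPKM in WT and 147 in KO (4.13 ± 0.44). Hsd3b5, a ketosteroid reductase expressed in male liver, had 9.61 FPKM in WT and 126 in KO (3.71 ± 0.37). Both were over 10 times as high in KO, and both KO values also exceeded those of either IUB288 group. Over the 24 genes the authors' deposited table under IUB288 had a median of 0.62, with 19 above 0 and 5 below. It called 6 of them higher in KO and none lower, against 0.313% and 0.23% of tested members.

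Susd4, a complement regulator, had 3.41 FPKM in WT and 20 in KO (2.55 ± 0.40). The complement component C6 had 29.2 and 116 FPKM (1.99 ± 0.39), and the fatty acid elongase Elovl3 had 30.7 and 88.9 FPKM (1.54 ± 0.36). The Mup and Serpina1 clusters encode major urinary proteins and alpha-1-antitrypsins and share members with the male-biased list. Among them 5 of 11 were 2-fold higher and none lower (median log2 0.91), against 1.83% and 2.16% of all members. Over the same 11 the authors' deposited table under IUB288 had a median of -0.10, with 5 above 0, 6 below and none called. Mup20, the male pheromone darcin, had 915 FPKM in WT and 3179 in KO (1.80 ± 0.49), and Serpina1e had 429 and 1536 (1.84 ± 0.54). These clusters hold near-identical copies, so the division of reads among them is uncertain. Of 16 measured female-biased genes 2 were 2-fold higher and 4 lower in KO, with a median log2 of -0.74. At a minimum of 5 FPKM 1 was higher and 1 lower, and the median of the female-biased liver genes was -0.44. Cyp2a4, a steroid hydroxylase of female liver, had 4.88 FPKM in WT and 1.04 in KO (-2.23 ± 0.61), while Ntrk2, a neurotrophin receptor of the same list, had 2.01 and 6.91 FPKM (1.78 ± 0.47).

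In the growth hormone and IGF1 axis 3 of 16 members were 2-fold higher in KO and 1 lower. The higher ones were Onecut1, a growth hormone-responsive liver transcription factor (2.37 FPKM in WT, 15.6 in KO, 2.71 ± 0.69), and the STAT5 feedback inhibitors Socs2 (1.80 and 5.53 FPKM, 1.62 ± 0.48) and Cish (5.01 and 10.8 FPKM, 1.11 ± 0.45). Igf1 itself, outside the naming rule and chosen after its value was seen, had 106 FPKM in WT and 105 in KO (-0.02 ± 0.65). Igfbp1, a binding protein of IGF1 that fasting and glucocorticoids raise, was lower, at 34.4 and 10.7 FPKM (-1.69 ± 0.44). Y-linked loci, 4 in number, were present in every group, with log2 values under vehicle from -0.06 to 0.24. A pooled value cannot show that both mice of a group expressed them. Beside these genes, the locus Cyp2c39, a P450 gene with close paralogs, had 1.35 FPKM in WT and 25.1 in KO, with a large error (4.22 ± 1.58).

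**Figure D2:**
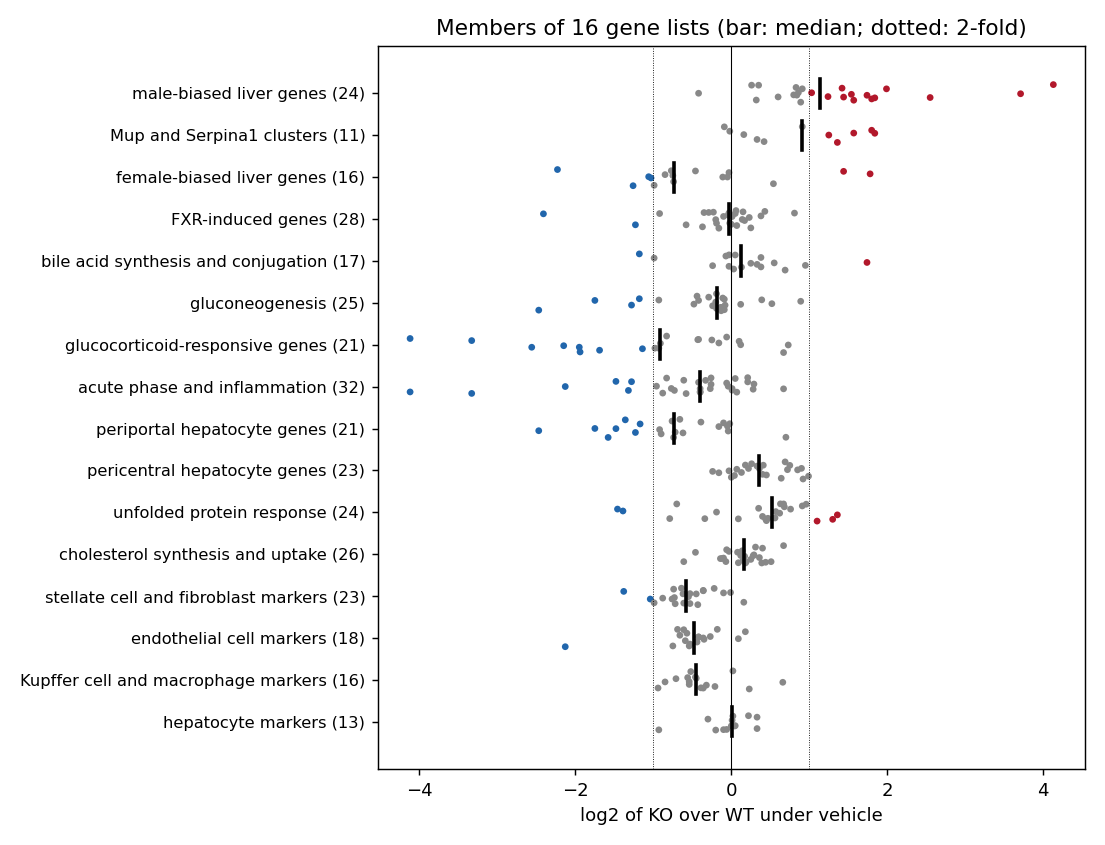
Log2 of KO over WT under vehicle for each measured member of 16 gene lists, with the number of members in brackets, the median as a black bar and the 2-fold limits dotted. Male-biased genes (median 1.14) lie to the right, glucocorticoid-responsive (-0.91) and periportal genes (-0.74) to the left, and FXR-induced genes (-0.03) and hepatocyte markers (0.01) around 0.

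Metallothioneins, small zinc-binding proteins induced by zinc and by glucocorticoids, were far lower in KO. Mt2, at mm10 chromosome 8 from 94172618 to 94173567, had 55.2 FPKM in WT and 3.17 in KO (-4.12 ± 0.67), a 17.4-fold difference. Mt1 had 169.7 FPKM in WT and 16.9 in KO (-3.33 ± 0.43). Under IUB288 the authors' deposited table gave 832 and 50.2 FPKM for Mt2 (log2 -4.05, q = 0.0118) and 1464 and 126 for Mt1 (-3.53, q = 0.0118). IUB288-treated groups had higher levels, and the difference between the genotypes was of like size, the KO effect on Mt2 under vehicle minus that under IUB288 being -0.07 ± 0.84. Of the 24 metallothionein, iron and heme genes 2 were 2-fold higher and 3 lower. The higher ones were the transferrin receptor Tfrc (2.37 and 5.21 FPKM, 1.14 ± 0.38) and the manganese exporter Slc30a10 (3.81 and 8.51 FPKM, 1.16 ± 0.38).

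Of 21 measured glucocorticoid-responsive genes 8 were 2-fold or more lower in KO and none higher, against 2.16% and 1.83% of all members, with a median log2 of -0.91. Besides Mt2 and Mt1 these were led by Zbtb16, a transcription factor that glucocorticoids induce, at 11 FPKM in WT and 1.87 in KO (-2.56 ± 0.51), and Fkbp5, a co-chaperone of the glucocorticoid receptor, at 15.3 and 3.44 FPKM (-2.15 ± 0.42). Cdkn1a, the cell cycle inhibitor p21, had 4.12 and 1.07 FPKM (-1.95 ± 0.59). The receptor gene Nr3c1, chosen after its value was seen, had 8.82 FPKM in WT and 11.3 in KO (0.36 ± 0.34). Under IUB288 the authors' deposited table called 3 of the 21 lower in KO, Mt2, Mt1 and Lcn2, against 0.23% of tested members. Zbtb16 had a log2 there of 0.30 with q = 1.00. The glucocorticoid element was in at least 1 window of 2 of the 19 list genes that matched RefSeq.

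Of 25 cAMP-responsive and immediate early genes 4 were 2-fold lower in KO and none higher (median log2 -0.30). Egr1, an immediate early transcription factor, had 8.30 FPKM in WT and 1.90 in KO (-2.13 ± 0.46), Per1, a clock gene that cAMP and glucocorticoids also induce, had 7.40 and 1.93 (-1.94 ± 0.40), and Btg2, an antiproliferative early gene, had 5.11 and 2.02 (-1.34 ± 0.45). Of 24 clock genes and outputs 4 were lower and 2 higher. Rgs16, a regulator of G protein signalling that fasting and the clock control in liver, had 102 FPKM in WT and 21.1 in KO (-2.28 ± 0.37), and the deubiquitinase Usp2 had 11.5 and 2.23 (-2.37 ± 0.45). The 2 higher ones, named after their values were seen, were the core clock activator Arntl (0.768 and 1.75 FPKM, 1.19 ± 0.57) and the vasopressin receptor Avpr1a (5.07 and 12.5 FPKM, 1.31 ± 0.45). The hour of death was not stated in the labels.

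Gluconeogenesis genes leaned lower in KO: 21 of 25 lay below 0, 4 were 2-fold lower and none was 2-fold higher, with a median log2 of -0.19. Sds, the serine dehydratase that feeds amino acid carbon into glucose, had 205 FPKM in WT and 36.9 in KO (-2.47 ± 0.55). Pck1, the cytosolic enzyme that commits oxaloacetate to glucose, had 818 and 243 FPKM (-1.75 ± 0.51). Got1, the cytosolic aspartate transaminase, had 136 and 55.9 FPKM (-1.28 ± 0.38), and the coactivator gene Ppargc1a had 3.42 and 1.51 FPKM (-1.18 ± 0.42). G6pc, the glucose-6-phosphatase that releases the sugar, was on the other side, at 47.2 FPKM in WT and 87.7 in KO (0.89 ± 0.38). Under IUB288 the authors' deposited table gave -0.39 for Pck1 and -0.78 for Sds, both with q = 1.00, and the test of the difference between the treatments gave an adjusted p of 1.00 for each. Over the same 25 genes the median there was also -0.19, with 21 below 0 and none called. Among all tested members there, 52.4% lay below 0. Of 16 glycolysis and glycogen genes 1 was 2-fold lower, Ppp1r3g, a glycogen-targeting phosphatase subunit, at 1.71 and 0.203 FPKM (-3.08 ± 0.82).

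Among genes of the periportal side of the liver lobule 7 of 21 were 2-fold lower in KO and none higher. The shares over all members were 2.16% and 1.83%. The median log2 of the list was -0.74, with 20 of the 21 below 0. The 7 include Sds and Pck1, the glutaminase Gls2 (229 and 82.5 FPKM, -1.48 ± 0.44) and Hsd17b6, a hydroxysteroid dehydrogenase (145 and 48.5 FPKM, -1.58 ± 0.45). The pericentral genes lay to the other side, with 20 of 23 above 0 and a median of 0.36, but none passed 2-fold. Under IUB288 the authors' deposited table had a median of -0.31 for the periportal genes, with 16 of 21 below 0 and none called. For the pericentral genes it had a median of 0.09, with 15 of 23 above 0 and 2 called higher. Of all tested members 0.313% were called higher there. Of 57 urea cycle and amino acid genes, which share members with the periportal list, 4 were 2-fold lower and none higher. Ass1, the argininosuccinate synthase, had 3333 FPKM in WT and 1480.2 in KO (-1.17 ± 0.66). Hal, the histidine ammonia-lyase, had 99.9 and 38.9 FPKM (-1.36 ± 0.41).

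Of 28 lipogenic and lipid storage genes 4 were 2-fold lower in KO and 1 higher. Lpin1, a phosphatidate phosphatase, had 70.6 FPKM in WT and 15.6 in KO (-2.18 ± 0.45). The lipid droplet genes Plin4 (6.87 and 1.00 FPKM, -2.78 ± 0.73) and Cidec (9.07 and 2.65 FPKM, -1.78 ± 0.86) were also lower, while Pnpla3, a lipase-family gene that feeding raises, was higher, at 1.1 and 6.17 FPKM (2.49 ± 0.52). Mfsd2a, a transporter of lysophosphatidylcholine, had 95 and 18.2 FPKM (-2.39 ± 0.36). None of the 26 cholesterol synthesis and uptake genes passed 2-fold, with a median of 0.16 and 18 above 0. Over the same 26 genes the authors' deposited table had a median of -0.46 under IUB288, with 22 below 0 and none called. Of 33 genes of fatty acid oxidation and ketogenesis 1 was 2-fold lower, Angptl4, an inhibitor of lipoprotein lipase, at 51.1 and 23.2 FPKM (-1.14 ± 0.37).

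Of 58 P450 and phase 2 genes 5 were 2-fold higher in KO and 2 lower (median 0.07). Of 24 genes of the unfolded protein response, which act in folding in the endoplasmic reticulum or in the stress signal from it, 18 lay above 0, 3 were 2-fold higher and 2 lower, with a median of 0.52. The chaperone cofactors Sdf2l1 (12 and 30.6 FPKM, 1.36 ± 0.38) and Creld2 (11.3 and 27.7 FPKM, 1.3 ± 0.38) were among the higher ones. Trib3 (7.63 and 2.77 FPKM, -1.46 ± 0.46), a pseudokinase, and Asns (5.58 and 2.13 FPKM, -1.39 ± 0.69), the asparagine synthetase, were the lower ones; both are known as targets of the ATF4 branch. Over the same genes the median in the authors' deposited table under IUB288 was -0.07.

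Of 32 acute phase and inflammation genes 6 were 2-fold lower in KO and none higher, with a median of -0.40. The serum amyloid genes Saa1 (218 FPKM in WT, 78.0 in KO, -1.48 ± 0.38) and Saa2 (84.3 and 34.6 FPKM, -1.28 ± 0.41) and the interleukin 1 receptor antagonist Il1rn (4.08 and 0.934 FPKM, -2.13 ± 0.56) were among them, as were Mt2 and Mt1, which the list shares with the glucocorticoid-responsive genes. Of 35 interferon and MHC genes 2 were 2-fold lower, Oasl2 (2.97 and 1.21 FPKM, -1.3 ± 0.52) and Gbp2 (2.87 and 1.18 FPKM, -1.29 ± 0.52). Gbp11, a guanylate-binding protein gene that is in none of the lists, was higher, at 1.5 FPKM in WT and 11.4 in KO (2.92 ± 0.54).

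**Figure D3:**
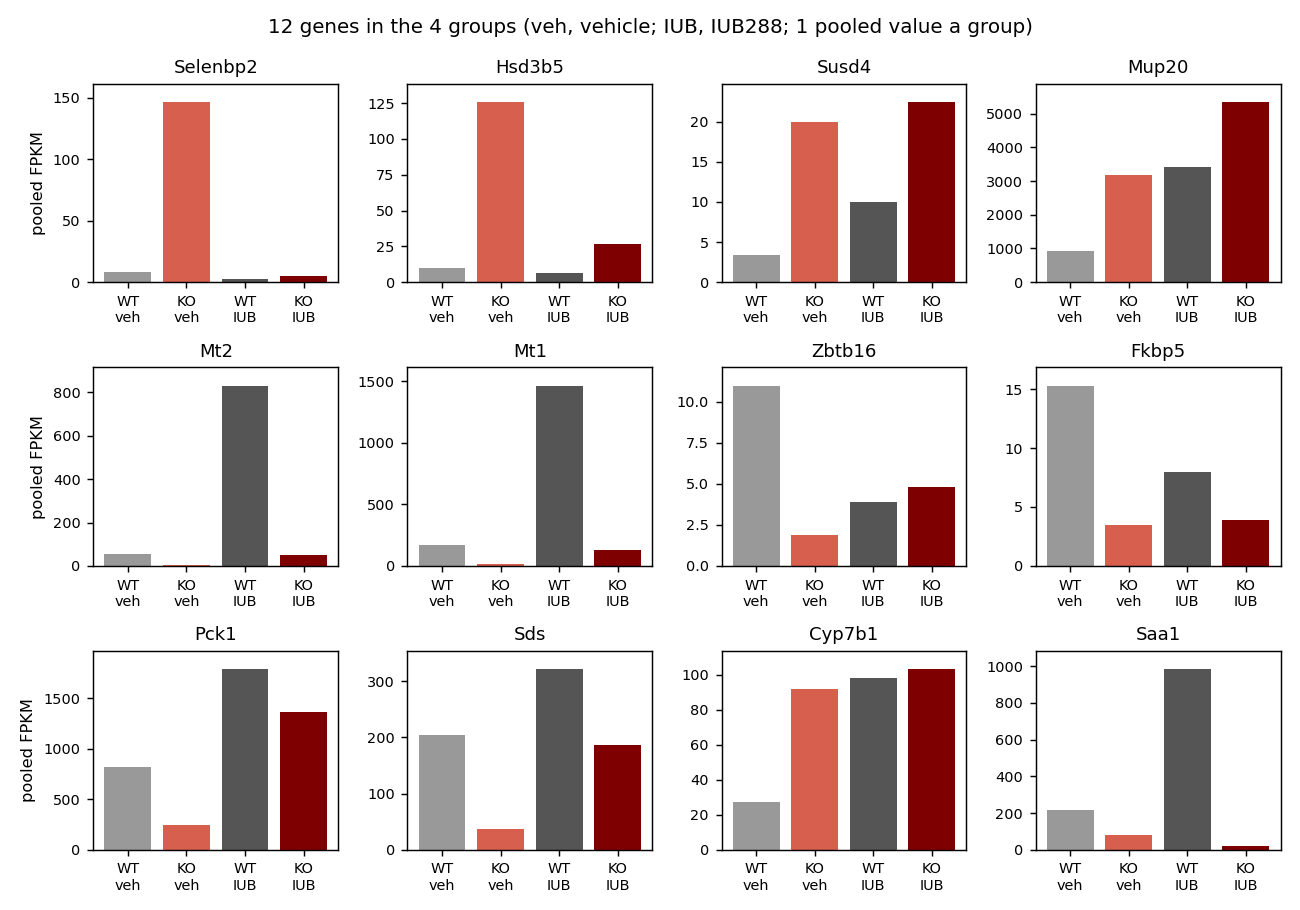
Pooled FPKM of 12 genes in WT and KO with vehicle (veh) and with IUB288 (IUB), 1 bar a group of 2 mice, linear axes from 0 and no error bars because no value per mouse is given. Selenbp2 reaches 147 in the KO vehicle group and under 10 in the other groups, while Mt2 and Mt1 are lower in KO than in WT in both treatments.

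Markers of other cell types moved with the groups. Summed FPKM values below cover all loci of a list, members or not. These numbered 25 for the stellate, 20 for the endothelial and 20 for the Kupffer list. Of 23 stellate cell and fibroblast markers 22 were below 0 under vehicle and 2 were 2-fold lower, Col1a1 (3.0 and 1.16 FPKM, -1.38 ± 0.45) and Col6a1 (5.24 and 2.54 FPKM, -1.04 ± 0.48), both collagen chains, with a median of -0.58 and a summed FPKM of 318 in WT and 218 in KO. Of 18 endothelial markers 16 were below 0 and 1 was 2-fold lower, Lyve1, a hyaluronan receptor of sinusoids, at 4.28 and 0.976 FPKM (-2.13 ± 0.54), and the sums were 170.2 and 131. Of 16 Kupffer cell and macrophage markers 13 were below 0 and none passed 2-fold, with sums of 293 and 241. Over all members the vehicle median was 0.04. Under IUB288 the sums in WT and KO were 187 and 197 for the stellate, 139 and 119 for the endothelial and 416 and 212 for the Kupffer list. For the stellate and endothelial lists the vehicle WT sum was thus the highest of the 4 groups. In the authors' deposited table the Kupffer cell markers were lower in KO under IUB288 as well, with a median of -1.20, 16 of 16 below 0 and 6 called lower. Among all tested members there, 52.4% lay below 0 and 0.23% were called lower. The stellate cell markers lay on the other side there, with a median of 0.23, 18 of 23 above 0 and none called in the authors' deposited table, and the endothelial markers had a median of -0.17. In bulk liver, fewer cells of a type and less RNA per cell cannot be told apart.

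Of 4 measured erythroid markers 3 were 2-fold higher in KO. Over all 8 loci of that list, members or not, the sums were 152 FPKM in WT and 293 in KO. The joint locus of Hbb-b1 and Hbb-b2, which encode beta-globins, had 17.0 FPKM in WT and 51.2 in KO (1.59 ± 0.40), and the Beta-s locus, outside the marker list, had 98.4 and 243 (1.31 ± 0.35). Of 2 loci named Hba-a1 and Hba-a2, which encode alpha-globins, 1 had 58.3 and 117 FPKM (1.00 ± 0.36) and the other 27.5 and 48.0 (0.80 ± 0.38), short of 2-fold. In the authors' deposited table all 4 globin loci were called higher in KO under IUB288, against 0.313% of tested members, with log2 values from 1.31 to 1.55. Of 14 pancreas markers 10 were listed at 0 in both vehicle groups, and the 1 measured, the elastase Cela1, had 14.4 and 55.2 FPKM (1.94 ± 0.40). The 13 measured hepatocyte markers had a median of 0.01 and none passed 2-fold; Alb was listed at 0 in both vehicle groups with status LOWDATA, which is a failed estimate. Of 5 cholangiocyte markers 1 was 2-fold higher and 1 lower, and none of 3 muscle and fat markers passed 2-fold, with Acta1, Ckm and Lep listed at 0. Of 3 lymphocyte and neutrophil markers 2 were lower, at low levels, with S100a8 at 1.78 and 0.174 FPKM (-3.35 ± 2.25). What these markers contribute to the differences above was not tested.

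Ribosomal RNA loci, which were looked at after their values were seen and whose level follows how libraries were depleted or selected, were also higher in KO: Rn45s had 1466 FPKM in WT and 4856 in KO (1.73 ± 0.91), mt-Rnr1 had 1391 and 2873 (1.05 ± 0.47) and mt-Rnr2 had 981 and 2207 (1.17 ± 0.49). Of the 23 loci of the mitochondrial genome 7 were 2-fold higher and 2 lower, with a median of 0.34. Those past 2-fold were ribosomal or transfer RNA loci, apart from the joint locus of mt-Atp6, mt-Atp8 and mt-Co3 (1.26 ± 3.73). Of those past 2-fold, mt-Tf was listed at 0 in WT. The other measured protein-coding loci lay from -0.27 ± 1.45 (mt-Nd6) to 0.34 ± 81.07 (mt-Nd1). None of the 54 nuclear genes of respiratory chain subunits passed 2-fold, and their median was -0.10. The part of library make-up in the other differences was not tested.

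Of 26 apolipoprotein and lipoprotein assembly genes 1 was 2-fold higher in KO and 3 were lower (median -0.18), Apoc2 among the latter. Of 15 cell cycle genes 2 were lower, and the median was 0.10. Other loci by the naming rule had errors too wide to read. Stub1 had 2449 FPKM in WT and 45.2 in KO with an error of 14.72 on the log2 scale, and Glce, an epimerase of heparan sulfate, had 110.2 and 3.09 FPKM with an error of 261.17. In the authors' deposited table Stub1 had 69.0 FPKM in WT and 12044 in KO under IUB288, the opposite direction, with q = 1.00. The lower group further held Gm129, a clock repressor gene, at 14.7 and 1.60 FPKM (-3.20 ± 0.97), and the higher group Serpina4-ps1, a pseudogene, at 4.58 and 24.9 FPKM (2.44 ± 0.43).

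The IUB288 groups consist of other mice, so the genotype contrast there is a separate reading of KO against WT under another treatment. Of 10878 tested members the authors' deposited table had 34 called higher in KO at q under 0.05 (0.313%) and 25 lower (0.23%). Of the 192 tested members that were 2-fold higher under vehicle, 156 (81.2%) were above 0 under IUB288 and 20 (10.4%) were called higher in the authors' deposited table. Of the 228 that were 2-fold lower, 140 (61.4%) were below 0 and 6 (2.63%) were called lower, against 52.4% of all members below 0. The higher genes thus kept their side more often than the lower ones, a difference that was not tested. Over 10862 loci the log2 values of the 2 treatments had a Pearson r of 0.32 and a Spearman rho of 0.37, given as a description of loci that share the libraries of each group.

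The 20 members higher in both treatments include 16 with a symbol, led by Hsd3b5, Susd4, Gas2l3, Zfp868, Hbb-b1 with Hbb-b2, Tsc22d1, Elovl3, Slc17a8, H2-Bl and the Slco1a1 locus. Zfp868, a zinc finger gene, had 1.36 FPKM in WT and 5.40 in KO under vehicle (1.99 ± 0.46) and 1.68 under IUB288 with q = 0.0118 in the authors' deposited table. Tsc22d1, a transcription regulator, had 22 and 64.4 FPKM (1.55 ± 0.39) and, in the authors' deposited table, 1.38 with q = 0.0118. The 6 lower in both were Mt2, Mt1, Saa1, Hapln4, Saa2 and Mmd2. Hapln4, a hyaluronan link protein, had 2.65 and 0.952 FPKM (-1.48 ± 0.50), and Mmd2, a membrane protein of the progestin and adipoQ receptor family, had 5.41 and 2.33 (-1.21 ± 0.46).
The opposite direction held for 2 loci, Derl3 and 1 without a symbol, named after their values were seen. Derl3, a component of endoplasmic reticulum degradation, had 1.21 FPKM in WT and 4.01 in KO under vehicle (1.73 ± 0.62) and a log2 of -1.79 with q = 0.0118 under IUB288 in the authors' deposited table. Of the 4 symbol-less loci higher in both treatments, all on chromosome 10 and listed at 0 in the IUB288 WT group, the largest had 64.8 FPKM in WT and 448 in KO under vehicle. It lies from 42054387 to 42054497, beside others at 42052740 to 42053003 and 42054175 to 42054332, while Nr1h4 starts at 89453976. Whether these adjacent loci are separate transcripts was not tested. With a listed 0 in WT, which can be a failed estimate, they have no finite log2 under IUB288.

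**Figure D4:**
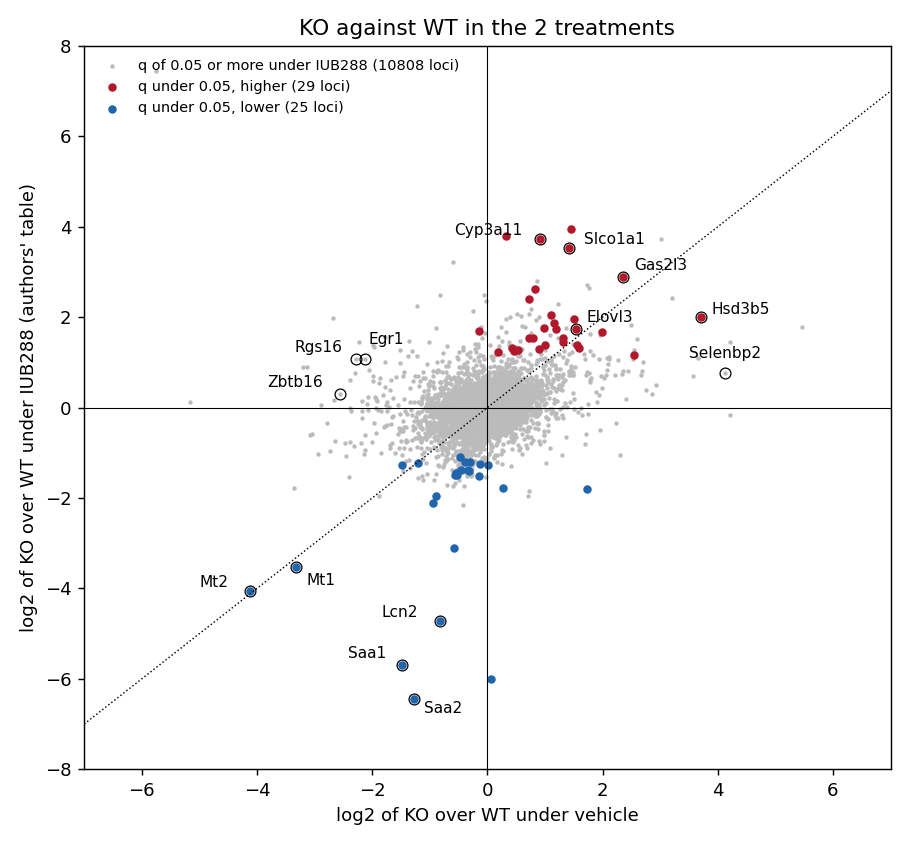
Log2 of KO over WT under vehicle (horizontal) against the authors' deposited log2 under IUB288 (vertical), 1 point a locus with finite values in both, coloured where the authors' q was under 0.05; the dotted line marks equal values. Mt1 and Mt2 lie near that line, Selenbp2 and Hsd3b5 below it on the right, and Saa1, Saa2 and Lcn2 far below it.

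The KO effect differed between the treatments at 14 of 13521 tested loci (0.104%, adjusted p under 0.05), from a z test on the implied errors. Of these 14, all members, 10 passed 2-fold under vehicle. Selenbp2 was the only one of the male-biased genes above with a larger KO effect under vehicle by this test, 4.13 against 0.77 in the authors' deposited table, a difference of 3.36 ± 0.68 (adjusted p of 0.00198). Zbtb16, Rgs16, Egr1 and Cyp2a4 were lower in KO under vehicle and above 0 under IUB288 in the authors' deposited table, with differences of -2.87 ± 0.68, -3.34 ± 0.78, -3.21 ± 0.68 and -3.68 ± 0.80 (adjusted p of 0.0316, 0.0268, 0.00527 and 0.00792). For Saa1 and Saa2 the KO effect was smaller under vehicle, by 4.21 ± 0.67 and 5.17 ± 0.71 on the log2 scale (adjusted p of 1.08e-06 and 1.58e-09). The remainder, outside the naming rule and named after their values were seen, were Irak1, Lcn2, Cyp26b1, Cyp4a12b, Derl3, Cyp3a11 and the joint locus of mt-Tl2 and mt-Ts2, whose implied error was near 0 and cannot be relied on. Irak1, a signalling kinase, differed through 1 group alone, with 898 FPKM in WT under IUB288 in the authors' deposited table against 13.4 and 14 under vehicle.

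The surroundings of Nr1h4 were read after the values of Gas2l3 and Slc17a8 had been seen. Within 1 Mb on either side, 10 other loci were members. Of these, 3 were 2-fold higher in KO under vehicle and none lower, against 1.83% and 2.16% of all members. Gas2l3 and the symbol-less locus that overlaps Slc17a8 reached 1 FPKM only in KO, the group where they were higher. Gas2l3, a cytoskeleton linker gene 10 kb from the Nr1h4 locus, had 0.406 FPKM in WT and 2.08 in KO (2.36 ± 0.52). Slc17a8, a vesicular glutamate transporter gene 40.4 kb away on the other side, had 3.26 and 9.28 FPKM (1.51 ± 0.40). In the authors' deposited table these were higher in KO under IUB288 as well, by 2.88 and 1.96 with q = 0.0118 each. The third is a locus without a symbol that overlaps Slc17a8, at 0.263 and 1.18 FPKM (2.17, with no implied error). Under IUB288 it was not tested in the authors' deposited table and had a log2 of 0.02. Farther off, Chpt1, Arl1, Utp20, Scyl2, Actr6 and Uhrf1bp1l had vehicle log2 values from -0.08 to 0.37. Another locus without a symbol, 153 kb away, had 3.01 FPKM in WT and 2.32 in KO (-0.37 ± 0.92).

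**Figure D5:**
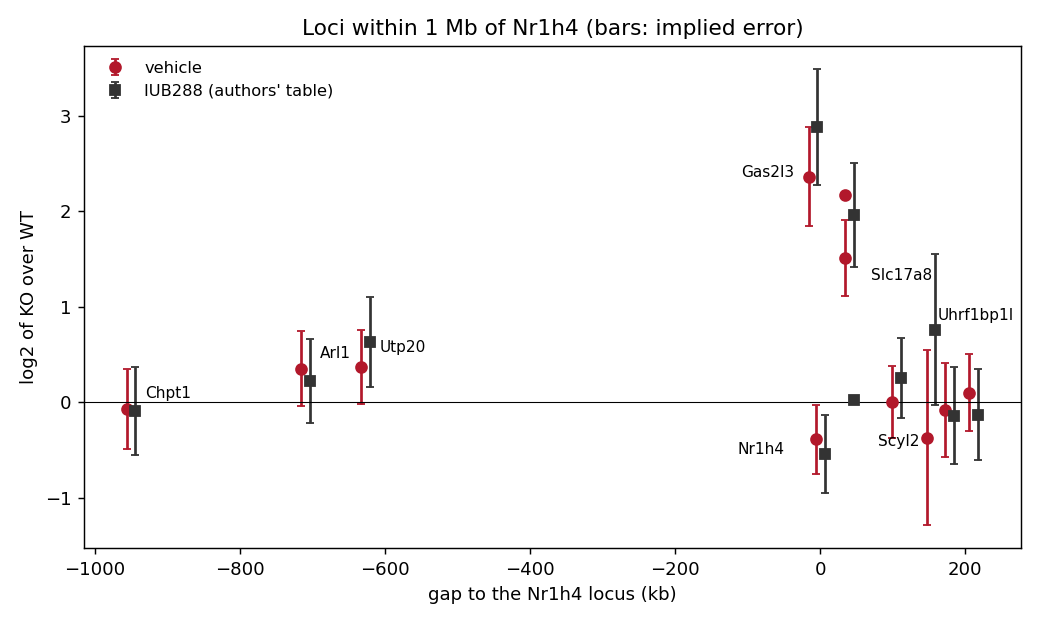
Log2 of KO over WT for the members within 1 Mb of Nr1h4, by the gap in kb between locus edges, under vehicle (circles) and in the authors' deposited table under IUB288 (squares); bars are implied errors, absent where none could be computed. Gas2l3 and Slc17a8 are the named neighbours far above 0, in both treatments, and Nr1h4 lies below 0.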

How the data were processed

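Liver RNA was extracted with TRIzol and made into libraries with a TruSeq kit, per the labels' protocols. Reads passed through TopHat2 2.0.12 with Bowtie2 2.2.3, Trim Galore 0.4.0, bcl2fastq 1.8.4, Cuffdiff and Cufflinks 2.2.1 in an order not stated, and builds hg19 and mm10 are named, per the submitters' processing notes; the locus coordinates match mm10, the build used here, counted from 1. No label says whether counting used strand, so overlapping genes cannot be told apart. The authors deposited 3 full tables with pooled FPKM per group, with a log2 fold change, a score for the test, a p-value and a q-value for each locus. The smallest p-value the authors deposited is 5e-05. The unmapped per-sample columns numbered 0.

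The table scales are medians over 4157 (KO) and 4222 (WT) loci above 10 FPKM of the IUB288 group's FPKM in the treatment table over that in the genotype table, with 5th to 95th percentiles of 1.052 to 1.053 and 1.075 to 1.078. Standard errors are the deposited log2 fold change over its statistic; that of the vehicle log2 is the root of the summed variances of both treatment tables less that of the genotype table, which 10857 members had. It comes from the model of the authors' test, which had 2 mice per group, and is not a measured spread between those mice. The vehicle contrast has no test. The KO effect under vehicle minus that under IUB288 equals the IUB288 effect in WT minus that in KO, and was tested with z values, Benjamini-Hochberg adjusted over all loci; the code was tested on simulated data. Gene lists (37) are described by counts and medians, taking for each symbol its member locus of highest FPKM.

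Named genes are a fixed set of FXR and glucagon genes, the 10 largest increases and decreases at 5 FPKM or more, up to 10 per direction that the authors also call under IUB288, and up to 4 past 2-fold per list; others are marked. Members, lists and rule were chosen with earlier results of these data known. Alternatives were other scales, minimums, pseudocounts, folds, thresholds and errors. Values were computed with pandas 2.3.3, scipy 1.17.1 and numpy 2.4.6 under Python 3.11.15, and plots with matplotlib 3.10.9.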

Additional observations from a re-analysis of the deposited data

Results flagged for a closer look

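Selected because the KO effect under vehicle differed from that under IUB288, 7 named genes stand out. The difference on the log2 scale (vehicle minus IUB288) was 5.17 ± 0.71 for Saa2, 4.21 ± 0.67 for Saa1 and 3.36 ± 0.68 for Selenbp2. It was -3.68 ± 0.80 for Cyp2a4, -3.34 ± 0.78 for Rgs16, -3.21 ± 0.68 for Egr1 and -2.87 ± 0.68 for Zbtb16. Saa1 and Saa2 were lower in KO in both treatments, and Selenbp2 was higher in KO in both, while Cyp2a4, Rgs16, Egr1 and Zbtb16 were lower in KO under vehicle and above 0 under IUB288 in the authors' deposited table. Rgs16 had 0.636 and 1.33 FPKM under IUB288 in the authors' deposited table, so its value there rests on a low level.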

How the results depend on the processing

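No paired analysis was possible because the tables hold 1 pooled value per group and carry no replicate numbers, and for the same reason no mouse could be left out. The counts of members past 2-fold (200 higher, 236 lower) became 112 and 106 with a pseudocount of 1 FPKM, 104 and 94 at a minimum of 5 FPKM, 324 and 419 with no minimum, 507 and 654 at 1.5-fold, 45 and 47 at 4-fold, and 114 and 134 where 2 implied errors were also required. They stayed within 1.5 times without scales (194 and 264), with the deposited fold changes chained (187 and 230), centred on the median (185 and 257) and with symbol-bearing loci alone (134 and 182), the last chosen after seeing the data. Over all 13918 loci the authors' calls under IUB288 (45 higher, 30 lower) became 0 and 0 at q under 0.01, where unadjusted p under 0.05 gave 283 and 290. The difference test called 8 loci at adjusted p under 0.01 and 11 with errors implied by the p-value, against 14. Under a pseudocount of 1 FPKM 14 of 97 named genes moved by more than their error, each toward 0, and Cyp2b13, which has no error, went from 1.44 to 0.88; examples are Gas2l3 to 1.13, Plin4 to -1.97 and Lyve1 to -1.42. None of the named genes changed sign under an alternative, though 77 of the 97 could be read at the minimum of 5 FPKM. Of 74 list counts 12 moved at that minimum and 11 with the pseudocount, and of the list medians 8 of 36 and 5 of 37 moved. The median of interferon response and MHC genes went from -0.16 to 0.07 at the minimum, and that of cell cycle and DNA replication genes from 0.10 to -0.10. With the pseudocount, 1 of the erythroid markers and none of the stellate markers or the higher iron genes passed 2-fold. Low FPKM and the pooling of 2 mice per group limit what can be read, since the spread between the mice of a group cannot be shown.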
